A study of Mus musculus with 24 samples.

Results

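The response of liver to phenobarbital in the absence of the nuclear receptor PXR was described on 6 arrays of 24 in the series, all the arrays of PXR-deficient mice. On each, the Cy5 channel held liver RNA of PXR-deficient mice killed 12 h after an intraperitoneal dose of 100 mg/kg phenobarbital. The Cy3 channel held 1 pool of RNA from 6 PXR-deficient livers taken 12 h after vehicle, 5% DMSO in corn oil. Values are log2 ratios of Cy5 over Cy3, so a positive value is a higher level after phenobarbital. The same design was used for the groups set beside it, 6 arrays each of wild-type (WT), CAR-deficient and CAR/PXR-deficient liver, each against the vehicle pool of its own genotype. All mice were male C57BL/6J. The labels give ages only for deficient mice, 9 to 12 weeks. How the receptors were inactivated is not stated in the labels. Nothing in the labels says that replicates came from separate mice, and the spread behind each p-value may thus be technical.

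PXR (pregnane X receptor) and CAR (constitutive androstane receptor) are nuclear receptors of hepatocytes that bind DNA as partners of RXR and switch on genes for the oxidation, conjugation and transport of drugs, steroids and bile acids. Phenobarbital is the textbook activator of CAR: it does so without binding the receptor, by causing its dephosphorylation and move into the nucleus, and Cyp2b genes are the classic targets in mouse liver. PXR is instead opened by a wide range of bound ligands, with Cyp3a genes as its classic targets, and both receptors can act on some of the same genes. PXR-deficient liver keeps CAR, and the arrays therefore show the response with CAR present and PXR absent. The study's title adds cholesterol homeostasis, and the array is a focused design of 120 mouse probes, each spotted 3 times. Nothing in the deposited files or the reference tables links a probe to its gene. Probes are therefore called by their numbers (Mm038 and so on), and no value can be given to a named gene, pathway or cell type. For the same reason the liver identity and the loss of PXR could not be checked on marker or receptor transcripts.

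PXR-deficient replicates 1 and 2 were nearly the same measurement. The variance of their difference was 1.04 times that of replicate spots on 1 array, and across the 68 tested probes they correlated at r = 0.981. The other 59 pairs of arrays within a genotype gave ratios of 1.79 to 52.9. Since these 2 arrays differed by about as much as spots of the same array do, their mean was taken as 1 sample, written as replicates 1-2. Replicates 3 and 4 were the next most alike pair of this genotype (ratio 2.12, r = 0.963) and were kept apart. Replicates 5 and 6 differed far more (ratio 17.4, r = 0.828), while the remaining 12 pairs had ratios of 6.79 to 18.0 and r of 0.834 to 0.931. They were also the dimmer arrays, with 64.2 and 63.1 percent of probe spots flagged and 46 and 47 probes usable, against 25.0 to 45.6 percent flagged and 70 to 104 probes usable on the other 4. Outside this genotype WT replicates 2 and 6 were the most alike pair (ratio 1.79, r = 0.983). They were kept as 2 samples, and averaging them was not tried. These correlations are across probes that share a pool and an array, and they describe the arrays only.

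**Figure D1:**
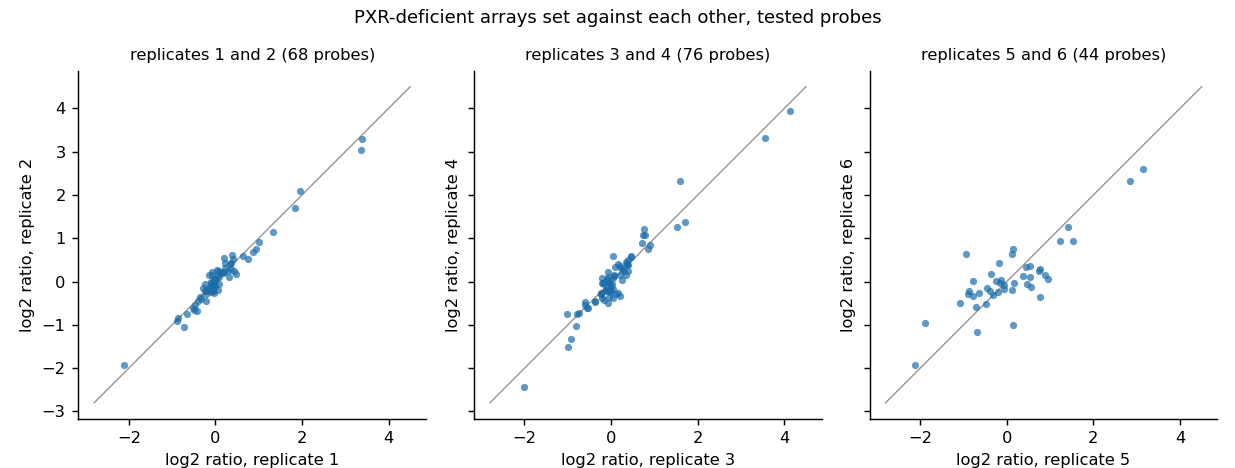
Each point is 1 tested probe, with its log2 ratio on the 2 PXR-deficient arrays named in the panel on the axes and the line of equal values drawn. Replicates 1 and 2 lie closest to the line, replicates 3 and 4 next, and replicates 5 and 6 scatter most (r = 0.981, 0.963 and 0.828).

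Of the 80 probes bright enough to be tested, 26 passed an adjusted p of 0.05 (32.5 percent), 16 of them higher (20.0 percent) and 10 lower (12.5 percent) after phenobarbital. By the same test 20 probes passed in WT liver (25.0 percent of 80), 27 in CAR/PXR-deficient liver (33.8 percent of 80) and 0 in CAR-deficient liver (0 percent of 78), where limma gave 12 at an unadjusted p under 0.05. These counts from separate tests do not compare the genotypes. The fit takes 1 spread per probe over all genotypes. The median SD of a probe was 0.20 in CAR-deficient liver, against 0.32 in WT and 0.30 in CAR/PXR-deficient liver. The count of 0 thus does not show that CAR-deficient liver lacked a response. In whole liver fewer cells of a type and less RNA per cell cannot be told apart. More than 2-fold changes made up 6 of the rises and 4 of the falls in PXR-deficient liver, and the other 16 calls were smaller. For 22 of the 26 every sample lay on the side of the mean: 12 of the 16 risers and 10 of the 10 that fell. The median absolute log2 ratio over the tested probes was 0.25 in PXR-deficient liver, against 0.20 in WT, 0.11 in CAR-deficient and 0.22 in CAR/PXR-deficient liver. The median SD of a probe over the PXR-deficient samples was 0.24, and the median SD of a probe's copies on 1 array was 0.14. Calls depended on how fully a probe was measured: 22 of the 43 probes measured in 5 samples passed (51.2 percent), against 4 of the 37 measured in fewer (10.8 percent). They also lay among the brighter probes, with median levels of 11.3 for the risers and 11.1 for those that fell, against 9.26 for the 54 not called, as the mean of both channels' normalized log2 levels.

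**Figure D2:**
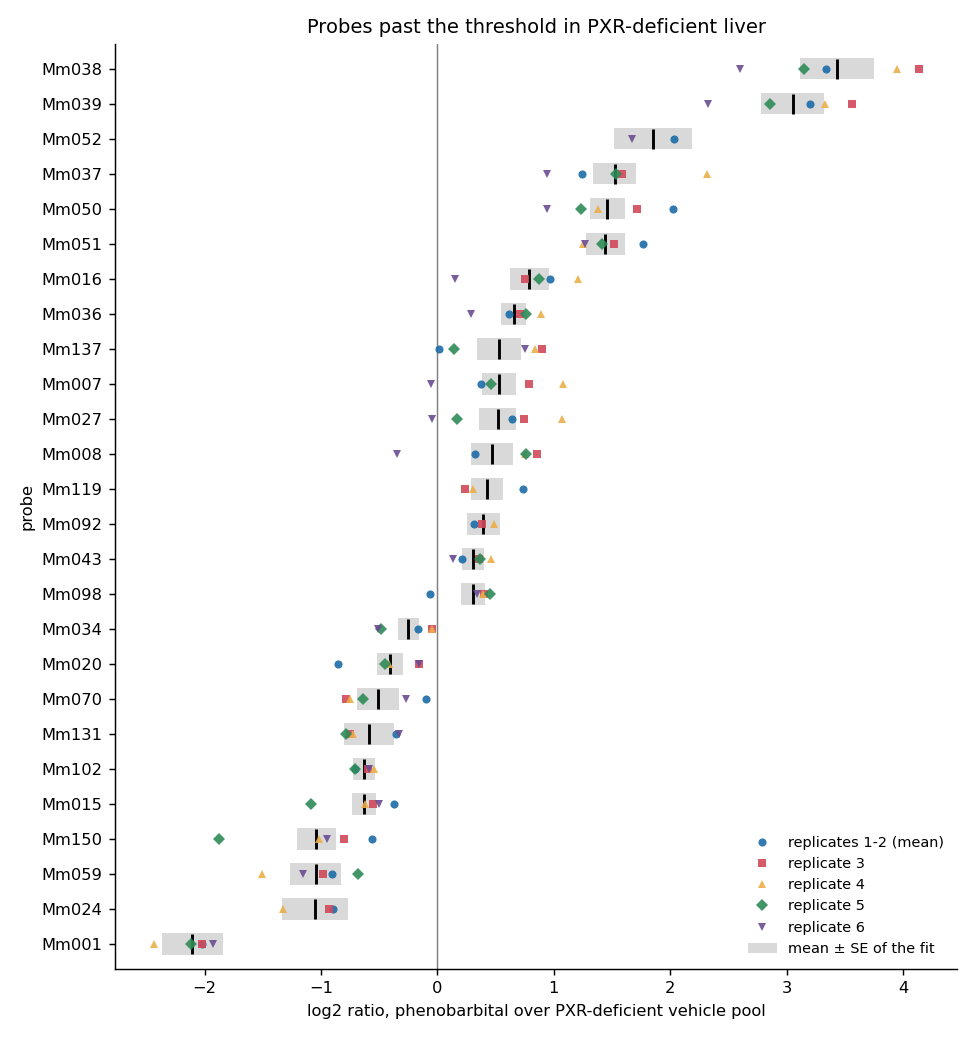
The log2 ratio of phenobarbital over the PXR-deficient vehicle pool is plotted for the 26 probes past the threshold, 1 symbol per sample, with the mean (black bar) and the SE of the fit (grey). Mm038 and Mm039 lie above 2 in every sample and Mm001 lies below -1.9 in every sample, while most other probes lie within 1 of zero and a few cross it. For Mm052 and Mm119, which replicate 1 did not measure, the symbol of replicates 1-2 is the value of replicate 2.

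The strongest rises were those of Mm038 and Mm039. Mm038 had log2 ratios of 3.34 in replicates 1-2, 4.14 in replicate 3, 3.94 in replicate 4, 3.15 in replicate 5 and 2.60 in replicate 6. This is a mean of 3.43 ± 0.62 (SD, n = 5), a 10.8-fold rise (SE 0.31, adjusted p = 4.01e-07). Mm039 gave 3.20, 3.56, 3.33, 2.86 and 2.32 in the same samples, a mean of 3.05 ± 0.48 (SD, n = 5) and an 8.30-fold rise (SE 0.27, adjusted p = 2.41e-07). Both probes had the same order of samples, with replicate 3 highest and replicate 6 lowest. The treated channel carried the signal: it was above background on 6 of 6 arrays for both, at normalized log2 levels of 12.30 ± 0.20 for Mm038 and 12.36 ± 0.19 for Mm039 (SD, n = 5, replicates 1-2 averaged). The pool was above background on 2 of 6 arrays for Mm038 and 3 of 6 for Mm039, at 8.87 ± 0.78 and 9.31 ± 0.36. With the pool this dim the fold depends on the background: without background correction the log2 ratios were 2.43 and 2.29.

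Mm037, Mm050 and Mm051 rose by 2.72 to 2.88-fold over clearly measured pools. Mm037 had log2 ratios of 1.24 in replicates 1-2, 1.59 in replicate 3, 2.32 in replicate 4, 1.53 in replicate 5 and 0.94 in replicate 6, a mean of 1.52 ± 0.51 (2.88-fold, SE 0.18, adjusted p = 4.53e-07). Replicate 4 stood above the others for this probe and replicate 6 below. Mm050 gave 2.03, 1.72, 1.38, 1.23 and 0.94 in the same order of samples, a mean of 1.46 ± 0.42 (2.75-fold, SE 0.15, adjusted p = 1.50e-07). Here replicates 1-2 were highest and replicate 6 again lowest. Mm051 was the tightest of the strong risers, at 1.76, 1.52, 1.25, 1.41 and 1.27, a mean of 1.44 ± 0.21 (2.72-fold, SE 0.16, adjusted p = 2.69e-07). For Mm037, Mm050 and Mm051 both channels were above background on all 6 arrays.

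Mm052 rose as well, but on 2 samples. Its log2 ratios were 2.03 in replicate 2 and 1.68 in replicate 6, a mean of 1.85 ± 0.25 (SD, n = 2), 3.61-fold (SE 0.33, adjusted p = 0.000562). The other 13 of its 18 spots carried the flag -100 and were left out. All 13 had saturated pixels in the treated channel, 9 to 82 percent of a spot's pixels, and none had any in the pool channel. In the 5 spots kept the treated channel had at most 4 percent. It was the brightest of these probes, at a normalized log2 level of 15.42 ± 0.61 in the treated channel and 13.57 ± 0.36 in the pool (SD, n = 2). With all flagged spots kept the log2 ratio was 1.80. A saturated spot understates its channel, and the size of this rise is uncertain.

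Mm016 and Mm036 rose by less than 2-fold on average, with every sample above 0. Mm016 had 0.97, 0.75, 1.21, 0.87 and 0.15 in replicates 1-2, 3, 4, 5 and 6, a mean of 0.79 ± 0.39 (1.73-fold, SE 0.17, adjusted p = 0.000709). Mm036 had 0.62, 0.71, 0.89, 0.76 and 0.29, a mean of 0.65 ± 0.23 (1.57-fold, SE 0.11, adjusted p = 4.69e-05). In both, replicate 4 was highest and replicate 6 lowest by a clear step. The strongest probes were close neighbours in number: 7 of the 8 highest fall in 2 runs of consecutive numbers, Mm036 to Mm039 and Mm050 to Mm052, while Mm016 stands alone. Over all 16 risers 9 had a neighbouring number among the risers, against 0 of the 10 that fell. The runs were seen after the values, the sets differ in size, and the share expected for sets drawn from all tested probes was not worked out. These counts therefore only describe the lists. What neighbouring numbers share is not stated in the files.

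The other 8 risers had smaller means, 0.30 to 0.53, and weaker calls. Mm007, with 0.37 in replicates 1-2, 0.78 in replicate 3, 1.08 in replicate 4, 0.46 in replicate 5 and -0.05 in replicate 6, averaged 0.53 ± 0.43 (adjusted p = 0.00888). Mm027 had 0.64, 0.74, 1.07, 0.17 and -0.04 in these samples and averaged 0.52 ± 0.45 (adjusted p = 0.0201). Mm008 had 0.33, 0.85, 0.75, 0.76 and -0.35, a mean of 0.47 ± 0.50 (adjusted p = 0.0448). In all of these replicate 6 was below 0 while the other samples were above it. Mm137 differed in its order, with 0.01, 0.90, 0.84, 0.14 and 0.75, so that replicates 1-2 and 5 lay near 0 (mean 0.53 ± 0.42, adjusted p = 0.0364). Mm043 was small and even, with 0.21, 0.35, 0.46, 0.37 and 0.14 (mean 0.31 ± 0.13, adjusted p = 0.0206). Mm098 had -0.06 in replicates 1-2 and 0.40, 0.39, 0.45 and 0.34 in the others (mean 0.30 ± 0.21, adjusted p = 0.0313). Mm119 and Mm092 were measured in 3 samples, at 0.43 ± 0.27 (adjusted p = 0.0313) and 0.39 ± 0.09 (adjusted p = 0.0378), with the pool above background on 2 and 3 of 6 arrays.

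The rises shared a pattern over samples. Among the 13 risers measured in 5 samples, replicate 6 was the lowest in 10, replicate 4 the highest in 6 and replicate 3 the highest in 4. The median log2 ratio of these 13 probes was 0.34 in replicate 6, against 0.64 in replicates 1-2, 0.85 in replicate 3, 1.08 in replicate 4 and 0.76 in replicate 5. Replicate 6 was one of the 2 dimmer arrays, and the part of brightness in this order was not tested. The 9 probes that fell and were measured in 5 samples showed no such order, since each of the 5 samples was lowest for 1 to 3 of them.

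Among the probes that fell, Mm001 had the largest fall. Its log2 ratios were -2.02 in replicates 1-2, -2.02 in replicate 3, -2.44 in replicate 4, -2.12 in replicate 5 and -1.93 in replicate 6. The mean of -2.10 ± 0.20 (SD, n = 5) is a 4.30-fold fall (SE 0.26, adjusted p = 5.08e-07), and its pool was above background on 6 of 6 arrays, the treated channel on 5. The next falls were of about 2-fold. Mm150 had -0.56, -0.80, -1.02, -1.88 and -0.95 in the same order of samples, with replicate 5 far below the others, and averaged -1.04 ± 0.50 (2.06-fold, SE 0.17, adjusted p = 2.49e-05). Mm059 had -0.90, -0.98, -1.51, -0.68 and -1.15 and averaged -1.05 ± 0.31 (2.07-fold, SE 0.22, adjusted p = 0.000642). Mm024 was measured in 3 samples, at -0.89 in replicates 1-2, -0.93 in replicate 3 and -1.32 in replicate 4, a mean of -1.05 ± 0.24 (SE 0.28, adjusted p = 0.0201). Only 2 of 6 arrays had its treated channel above background and 4 its pool, which leaves the size of this fall uncertain.

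Mm102 and Mm015 fell by 1.54-fold and 1.55-fold, with very different spreads. Mm102 had -0.71 in replicates 1-2, -0.59 in replicate 3, -0.54 in replicate 4, -0.71 in replicate 5 and -0.59 in replicate 6. Its mean of -0.63 ± 0.08 had the smallest SD of all called probes (SE 0.10, adjusted p = 1.31e-05). Mm015 had -0.37, -0.55, -0.62, -1.09 and -0.50 in these samples, with replicate 5 lowest as for Mm150, and averaged -0.63 ± 0.27 (SE 0.10, adjusted p = 2.49e-05). Mm131 had -0.36, -0.75, -0.73, -0.79 and -0.33 (mean -0.59 ± 0.23, adjusted p = 0.0378). Mm070 had -0.10, -0.79, -0.75, -0.64 and -0.27 (mean -0.51 ± 0.31, adjusted p = 0.0351). In both of these replicates 1-2 and 6 lay nearer to 0 than the other 3 samples. Mm020 was opposite in order, with -0.86 in replicates 1-2 and -0.16, -0.42, -0.45 and -0.16 in the others (mean -0.41 ± 0.29, adjusted p = 0.00731). Mm034 had -0.17, -0.05, -0.04, -0.48 and -0.51 and averaged -0.25 ± 0.23 (adjusted p = 0.0364), with only replicates 5 and 6 well below 0.

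Among the 54 tested probes that did not pass, 11 had an unadjusted p under 0.05, and means ran from -0.48 to 0.36. The nearest to the threshold were Mm134 (0.35 ± 0.19, n = 3, adjusted p = 0.0519), Mm071 (0.36 ± 0.18, n = 3, adjusted p = 0.0544) and Mm154 (-0.25 ± 0.25, n = 5, adjusted p = 0.0545). The called probe closest to it was Mm008 at 0.0448. Mm144 was measured in 1 sample, at 0.05, with its pool above background on none of the 6 arrays. Of the 40 probes too dim to be tested, 12 gave no ratio in PXR-deficient liver, and the 13 with a ratio in at least 2 samples had means of -0.51 to 0.53. No rise of the size of Mm037 or fall of the size of Mm001 was measured among these 13.

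How firm the calls were differed between the strong and the weak. With each sample left out in turn 13 of the 26 calls still passed each time, among them Mm038, Mm039, Mm052, Mm037, Mm050, Mm051, Mm016 and Mm036 of the risers and Mm001, Mm150, Mm059, Mm102 and Mm015 of those that fell. For Mm052 this says little: leaving out replicates 1-2 or replicate 6 left 1 sample, whose spread was assumed to be that of the other genotypes, and leaving out any other sample left its value as it was. The count was 18 without replicates 1-2, 16 without replicate 3, 15 without replicate 4, 20 without replicate 5 and 24 without replicate 6. Without replicate 3 the calls of Mm007, Mm008, Mm027, Mm043, Mm092, Mm098, Mm137, Mm024, Mm070 and Mm131 were lost, and without replicate 4 the same ones and that of Mm119 were lost. Leaving out replicates 1-2 ended the calls of Mm008, Mm027, Mm092, Mm119, Mm020, Mm024, Mm034 and Mm131. Leaving out replicate 5 ended those of Mm008, Mm043, Mm098, Mm034, Mm070 and Mm131, and leaving out replicate 6 those of Mm098, Mm137 and Mm034. With replicates 3 and 4 averaged too the count was 15.

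The split between rises and falls moved with the centring of the arrays. After loess the median log2 ratio of the tested probes was -0.01, but it was 0.35 when the arrays were centred on the calibration spike-ins and 0.35 in the authors' deposited value table. With the spike-ins 23 probes were then higher and 2 lower, and the deposited values gave 11 higher and 1 lower. Of the probes that fell, Mm001 kept its call in both, at -1.60 and -1.52, and Mm024 with the spike-ins. Mm015, Mm020, Mm034 and Mm131 had means above 0 with the spike-ins, as had Mm070, and Mm020, Mm034 and Mm131 also in the value table. Relative to the median of all tested probes 9 of the 10 stayed lower with the spike-ins and 10 of 10 in the value table. The spike-ins of the 2 channels were different products added separately, so neither centring is known to be the true one.

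**Figure D3:**
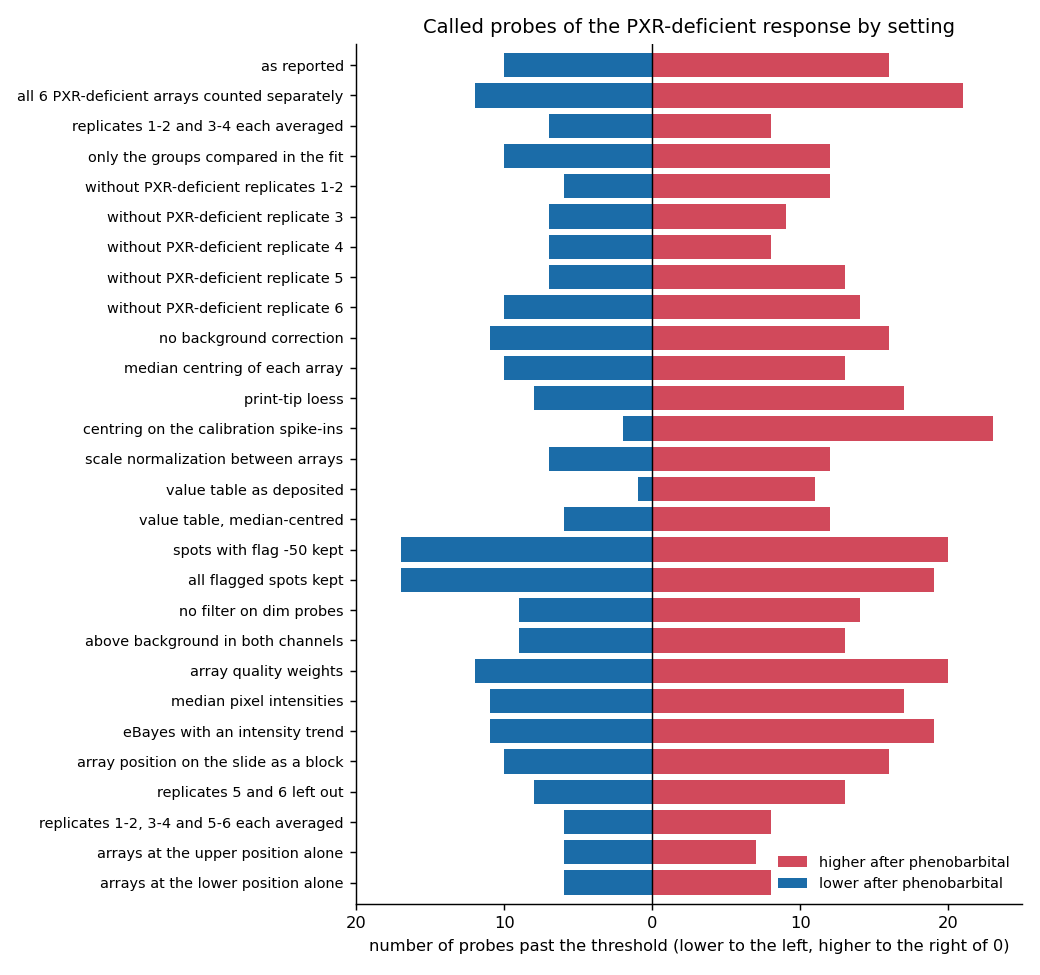
Bars give the number of probes past the threshold in PXR-deficient liver under each processing alternative, risers to the right of 0 and those that fell to the left. The count as reported is 16 and 10, and the most one-sided splits are those with the spike-ins (23 and 2) and in the deposited value table (11 and 1).

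The channel levels set the parts of a ratio side by side, as normalized log2 levels averaged over 6 arrays of a genotype. Of the risers, 10 of the 16 had a higher treated level in PXR-deficient liver than in all 3 other genotypes, against 11 of all 80 tested probes. A higher pool level than in the other 3 was found for 1 of the 16. The risers were called for a treated level above the pool on these same arrays. Both counts are thus partly built in by selection and do not show which channel the rises came from. Mm050 had a treated level of 14.00 in PXR-deficient liver, against 12.18 to 13.28 in the other genotypes, with its pool at 12.54 against 11.82 to 12.94. Mm051 had 13.21 against 11.75 to 12.56, with its pool at 11.76 against 11.32 to 12.47. Those that fell were called for a low ratio, so their counts are partly built in too. A lower treated level than in all 3 other genotypes was found for 6 of the 10, against 35 of 80. A higher pool level was found for 5 of the 10, against 18 of 80. Mm001 is the clearest case. Its treated level was 9.34 in PXR-deficient liver, against 10.03 in WT, 9.54 in CAR-deficient and 9.98 in CAR/PXR-deficient liver, while its pool was 11.45, against 9.92, 9.61 and 9.95. For Mm024 the treated level was 8.25, against 8.08 to 8.95, and the pool 9.47, against 7.91 to 8.28. For Mm102 the treated level was 10.47, against 10.74 to 11.25, and the pool 11.10, against 10.65 to 11.09. Each genotype had 1 pool, and for these probes a drop caused by treatment cannot be told apart from a vehicle pool that differed.

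**Figure D4:**
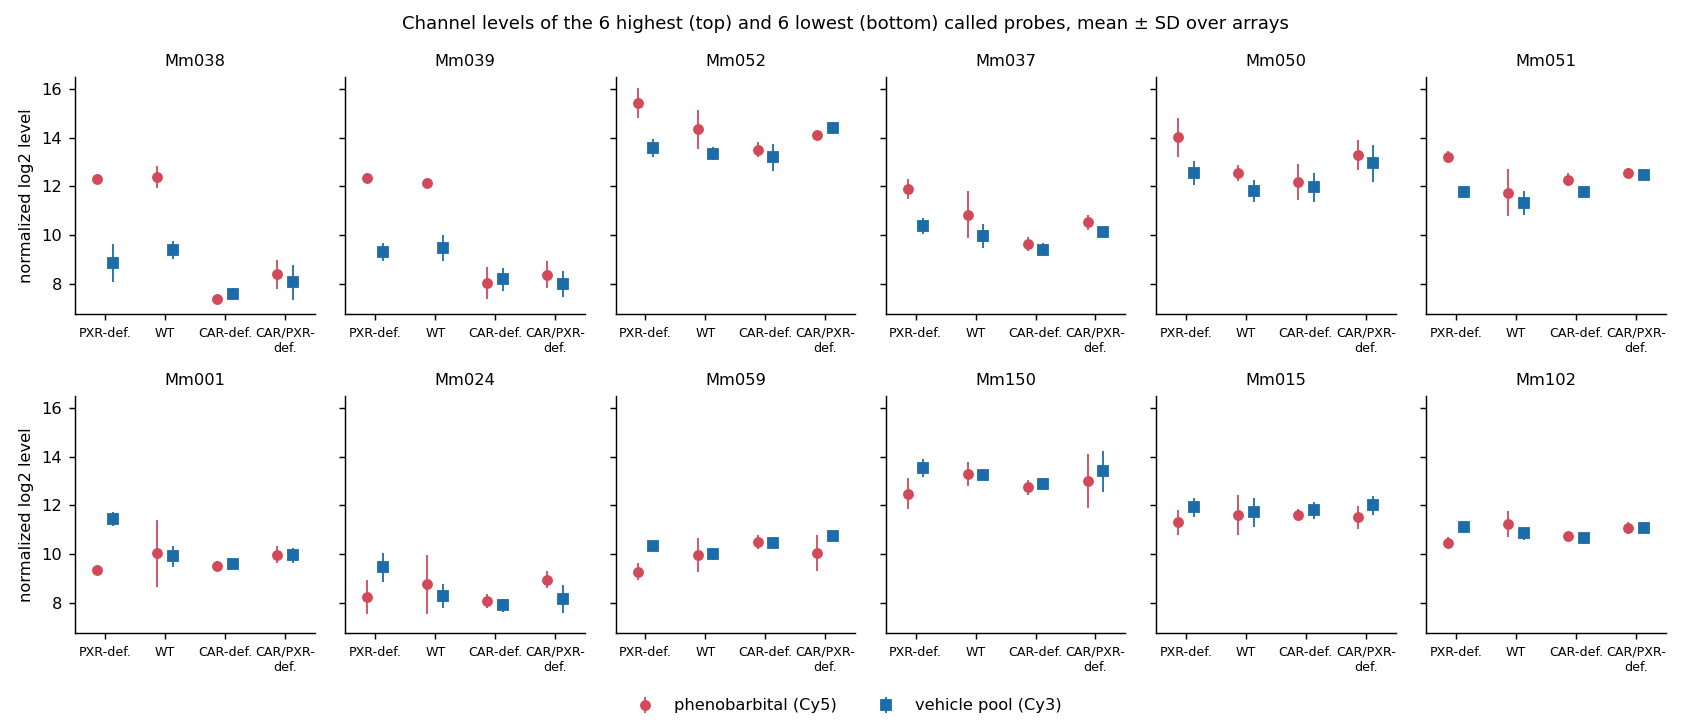
Normalized log2 levels of the treated (Cy5, circles) and vehicle pool (Cy3, squares) channels are shown as mean and SD over the 6 arrays of each genotype, for the 6 highest probes (top) and the 6 lowest (bottom). Mm038 and Mm039 have treated levels of 12.12 to 12.39 in PXR-deficient and WT liver and of 7.36 to 8.40 in the genotypes without CAR, and the PXR-deficient pool of Mm001 (11.45) lies above the other 3 pools. The levels without CAR are uncertain: Mm038 was above background on no CAR-deficient array, and levels keep some flagged spots that the ratios leave out.

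The comparison with WT asks which responses differ when PXR is missing. Log2 ratios were subtracted, PXR-deficient minus WT, which removes any dye effect that the arrays share. It passed for 15 of 80 probes (18.8 percent), 5 higher (6.25 percent) and 10 lower (12.5 percent) in PXR-deficient liver. Both tests use the same PXR-deficient samples, so probes called in the response lean to the same side in the difference by selection. Centring weighed on the split: 27 probes were higher and 1 lower with the spike-ins, 7 and 1 in the deposited value table, 6 and 4 once its arrays were centred on their medians, 8 and 5 with print-tip loess, and 0 and 5 with scale normalization. The median difference over the tested probes was 0.09 after loess, against 0.76 with the spike-ins and 0.61 in the value table. For Mm038 and Mm039, the probes that rose most, the difference did not pass. Mm038 was 3.43 ± 0.62 (n = 5) in PXR-deficient liver and 3.01 ± 0.75 (n = 6) in WT, a difference of 0.42 (SE 0.43, adjusted p = 0.490). Mm039 was 3.05 ± 0.48 against 2.66 ± 0.67, a difference of 0.39 (SE 0.37, adjusted p = 0.480). Mm052 (difference 0.85, adjusted p = 0.193), Mm037 (0.60, adjusted p = 0.0923) and Mm016 (0.11, adjusted p = 0.766) did not pass. The WT pool was above background on 1 of 6 arrays for Mm038 and for Mm039, and the size of both WT rises and of these differences is uncertain. These p-values do not show that the responses were alike.

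Larger responses in PXR-deficient liver were found for 4 of the 16 risers. Mm051 was 1.44 ± 0.21 against 0.43 ± 0.70 in WT (difference 1.02, SE 0.22, adjusted p = 0.00291). Its 5 PXR-deficient samples ran from 1.25 to 1.76 and did not overlap the 6 WT samples, which ran from -0.41 to 1.12 (median 0.42). Mm050 was 1.46 ± 0.42 against 0.75 ± 0.39 (difference 0.71, SE 0.21, adjusted p = 0.0173), and the samples overlapped, since WT reached 1.07. Mm036 was 0.65 ± 0.23 against 0.10 ± 0.36 (difference 0.56, SE 0.15, adjusted p = 0.0148). Mm043 was 0.31 ± 0.13 against -0.17 ± 0.30 in 5 WT samples (difference 0.48, SE 0.13, adjusted p = 0.0173). Fitted with these 2 genotypes alone none of the 4 passed, and the count over all probes was 4, each of them lower in PXR-deficient liver. Leaving out PXR-deficient replicates 1-2 ended the call of Mm050 (adjusted p = 0.0556). In the deposited value table Mm036 and Mm043 did not pass (adjusted p = 0.0810 and 0.223). The call of Mm043 was lost without PXR-deficient replicate 4 (0.0528) or WT replicate 2 or 6 (0.0504 and 0.0565).

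Of the 10 probes that fell in PXR-deficient liver, 7 had a lower response than in WT. Mm102 gave the smallest adjusted p of this comparison, with -0.63 ± 0.08 against 0.40 ± 0.28 (difference -1.02, SE 0.13, adjusted p = 4.52e-06). Its PXR-deficient samples were all below -0.5 and its WT samples all above 0, from 0.10 to 0.80. Mm001 was -2.10 ± 0.20 against 0.11 ± 1.16 (difference -2.21, SE 0.35, adjusted p = 8.54e-05), with WT samples spread from -1.18 to 1.64 but none as low as a PXR-deficient one. Mm150 was -1.04 ± 0.50 against 0.06 ± 0.47 (difference -1.10, SE 0.23, adjusted p = 0.00185). Mm059 was -1.05 ± 0.31 against -0.04 ± 0.66 (difference -1.01, SE 0.30, adjusted p = 0.0202), and Mm024 -1.05 ± 0.24 against 0.85 ± 0.94 in 2 WT samples (difference -1.90, SE 0.44, adjusted p = 0.0173). Mm015 (-0.50, adjusted p = 0.0148) and Mm034 (-0.38, adjusted p = 0.0262) completed the 7. Centring bore on most of these calls. With the spike-ins Mm001 passed (-1.18, adjusted p = 0.0400), while Mm102 (-0.20, adjusted p = 0.590), Mm150 (-0.64, 0.166), Mm059 (-0.19, 0.714) and Mm024 (-1.60, 0.0508) did not, and Mm015 and Mm034 were above 0 (0.40 and 0.59). In the deposited value table Mm001 was likewise the one of the 7 to pass (-1.39, adjusted p = 0.0258), and Mm102 was -0.27 (0.650). Mm059 was lost without PXR-deficient replicate 4 or WT replicate 2 or 6, Mm024 without PXR-deficient replicate 4 or WT replicate 6, and Mm034 without PXR-deficient replicate 5 or 6 or WT replicate 4. Over all probes the count was 9 without PXR-deficient replicate 4, 11 without WT replicate 2 and 9 without WT replicate 6. WT replicates 2 and 6 were nearly alike and entered the fit as 2 samples. On WT replicate 6 no probe spot was flagged, although 55 of its 120 usable probes were above background in either channel. Its dim spots were therefore kept. Without this array the Mm024 difference was -1.24, on 1 WT sample.

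In 4 probes the difference passed although the PXR-deficient response itself did not, and they are named because they are few, after their values were seen. Mm133 was 0.31 ± 0.22 in PXR-deficient liver and -0.26 ± 0.32 in WT (adjusted p = 0.0245). Mm157 was -0.27 ± 0.35 against 0.38 ± 0.42 (adjusted p = 0.0148), Mm104 -0.19 ± 0.06 against 0.40 ± 0.34 (adjusted p = 0.0203) and Mm155 0.13 ± 0.30 against 0.56 ± 0.36 (adjusted p = 0.0498). For Mm157 and Mm104 the mean was thus below 0 without PXR and above 0 in WT.

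Set against liver that lacks CAR as well, the PXR-deficient response differed in 26 of 80 probes (32.5 percent), 15 higher (18.8 percent) and 11 lower (13.8 percent). The response and this difference use the same PXR-deficient samples. Probes called for a high or low response therefore lean to the same side in the difference by selection. The difference was largest for the probes that rose most. Mm038 was 3.43 ± 0.62 (n = 5) in PXR-deficient and -0.10 ± 1.14 (n = 3) in CAR/PXR-deficient liver, a difference of 3.53 (SE 0.51, adjusted p = 9.58e-05), and Mm039 was 3.05 ± 0.48 against -0.22 ± 1.06 (difference 3.27, SE 0.44, adjusted p = 7.97e-05). The lowest PXR-deficient samples, 2.60 and 2.32, lay above the highest CAR/PXR-deficient ones, 1.09 and 0.85. Both probes were dim in CAR/PXR-deficient liver, with the treated channel above background on 2 of 6 arrays and the pool on 3, which leaves the size of these differences uncertain.

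In all, 10 of the 16 risers had a higher response in PXR-deficient than in CAR/PXR-deficient liver, a count that their selection partly builds in. With the spike-in centring Mm038, Mm039, Mm052 and Mm051 of these passed, and Mm037, Mm050, Mm036, Mm007, Mm008 and Mm027 did not (adjusted p = 0.0510 to 0.895). In the deposited value table Mm038, Mm039 and Mm052 passed and the other 7 did not (adjusted p = 0.308 to 0.791), with Mm036 (-0.17), Mm007 (-0.49) and Mm008 (-0.39) below 0 there. Mm051 was 1.44 ± 0.21 against 0.10 ± 0.10 (n = 6; difference 1.35, SE 0.22, adjusted p = 7.97e-05), and no samples overlapped. Mm050 was 1.46 ± 0.42 against 0.34 ± 0.36 (difference 1.12, SE 0.21, adjusted p = 0.000216) and Mm037 1.52 ± 0.51 against 0.41 ± 0.19 (difference 1.12, SE 0.25, adjusted p = 0.00148). Mm052 was 1.85 ± 0.25 against -0.29 ± 0.38 on 2 samples each (difference 2.14, adjusted p = 0.00318). Mm036 was 0.65 ± 0.23 against -0.02 ± 0.16 (difference 0.67, adjusted p = 0.00148). Mm027 was 0.52 ± 0.45 against -0.64 ± 0.37 (difference 1.15, SE 0.22, adjusted p = 0.000310). Its difference was 0.84 with the spike-ins and 0.45 in the value table. Mm008 (difference 0.72, adjusted p = 0.0249) and Mm007 (0.64, adjusted p = 0.0189) were the other 2. After loess Mm016 was the exception among the 8 highest risers. It rose by 0.79 ± 0.39 in PXR-deficient liver and had means of 0.76 ± 0.61 in CAR/PXR-deficient liver (difference 0.03, SE 0.23, adjusted p = 0.928) and 0.68 ± 0.20 in WT. Its mean in CAR-deficient liver, given below, was lower than these.

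Of the probes that fell, 7 of 10 had a lower response than in CAR/PXR-deficient liver, again partly by selection. Mm001 was -2.10 ± 0.20 against 0.03 ± 0.22 (n = 6; difference -2.13, SE 0.35, adjusted p = 7.97e-05), and Mm102 was -0.63 ± 0.08 against -0.01 ± 0.21 (difference -0.61, SE 0.13, adjusted p = 0.000901). No samples overlapped for either. Mm024 was -1.05 ± 0.24 (n = 3) against 0.71 ± 0.59 (n = 4; difference -1.76, adjusted p = 0.00498). The other 4 were Mm131 (difference -0.84, adjusted p = 0.0276), Mm070 (-0.73, adjusted p = 0.0243), Mm150 (-0.66, adjusted p = 0.0265) and Mm034 (-0.42, adjusted p = 0.00937). Mm059 and Mm015, which also fell in PXR-deficient liver, had means of -0.70 ± 0.69 and -0.49 ± 0.20 in CAR/PXR-deficient liver and their differences did not pass (adjusted p = 0.454 and 0.508). Centred on the spike-ins, 4 probes were higher and 30 lower, and scale normalization gave 15 and 7. The deposited value table gave 3 higher and 34 lower, with differences below 0 for Mm036, Mm007 and Mm008. The median difference over the tested probes was 0.0043 after loess, -0.78 with the spike-ins and -0.98 in the value table. Single samples decided several weak calls: Mm007 was lost without PXR-deficient replicate 3 or 4, Mm008, Mm070 and Mm131 without PXR-deficient replicate 3, 4 or 5, and Mm150 without replicate 4 or 5. On the CAR/PXR-deficient side Mm008 was lost without replicate 1, 2 or 6, Mm131 without replicate 1, 2 or 3 and Mm150 without replicate 1 or 6.

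**Figure D5:**
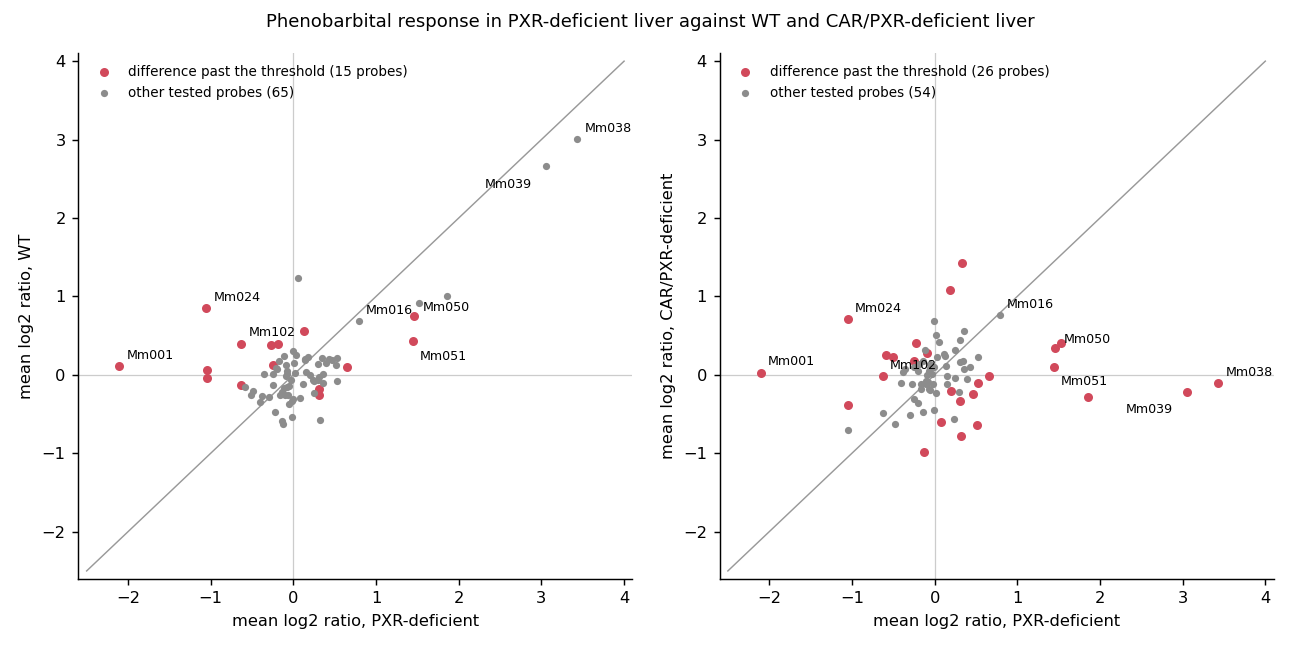
Each point is 1 tested probe, with its mean log2 ratio in PXR-deficient liver on the x axis and in WT (left) or CAR/PXR-deficient liver (right) on the y axis. Red points are the 15 and 26 probes whose difference passed. Mm038 and Mm039 lie near the line of equal responses against WT and near a y value of 0 against CAR/PXR-deficient liver, while Mm001 lies at -2.10 on the x axis and near 0 on both y axes.

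CAR-deficient liver, which has PXR but not CAR, gave values near 0 for most of the probes that changed in PXR-deficient liver. These are set side by side with no test. Mm039 was 3.05 ± 0.48 (n = 5) in PXR-deficient liver and 0.07 ± 0.10 (n = 2) in CAR-deficient liver. Mm038 had no usable ratio there, since all its spots were flagged, and neither channel rose above background on any array. Mm037 was 1.52 ± 0.51 against 0.24 ± 0.16 (n = 6), Mm050 1.46 ± 0.42 against 0.22 ± 0.22 and Mm016 0.79 ± 0.39 against 0.22 ± 0.26. Mm051 had the highest CAR-deficient mean of the 6 strongest risers, 0.52 ± 0.18, against 1.44 ± 0.21 in PXR-deficient liver. Of those that fell, Mm001 was -2.10 ± 0.20 against -0.08 ± 0.22, Mm059 -1.05 ± 0.31 against 0.05 ± 0.27 and Mm131 -0.59 ± 0.23 against -0.38 ± 0.32.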

How the data were processed

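Members, probe lists and tests were chosen with earlier results of these data known. Per the file headers, the deposited array files list, for every spot and channel, intensity as mean and median over pixels, background intensity with SD, the percent of pixels saturated, and flags. Scanner, software and flag criteria are not given; all 86 probe spots with the flag -100 had saturated pixels. Dyes were not swapped. The authors' value table was found to be in log2 ratios by setting it against the scanner values (r of 0.915 to 0.986 on PXR-deficient arrays); how the authors centred them is not given, and array medians ran from 0.03 to 0.54. It served as an alternative. The deposited treatment tag of the second channel of WT replicate 1 names phenobarbital, while its source name and protocol give the vehicle pool; it was read as the pool.

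Computed here with R 4.3.3 and limma 3.58.1 (figures with Python 3.11.15 and matplotlib 3.10.9): normexp background correction (offset 50) of the mean intensities, loess within each array (span 0.3, 4 iterations) over unflagged spots with controls at weight 0, flagged spots left out, and the 3 copies of a probe averaged. A probe was tested if at least 2 of its spots exceeded the local background by 2 SD in either channel on at least 12 of the 24 arrays. A linear model with a mean per genotype was fitted to the 23 samples (lmFit, eBayes), so missing values of a probe reduce its n; each response was tested against 0 and differences as contrasts, two-sided, with Benjamini-Hochberg adjustment over the tested probes at 0.05. Adjusted p-values and SE come from this fit. With 1 pool per genotype, the test leaves out the spread between vehicle mice. Channel levels are loess-normalized and then Aquantile-normalized between arrays. Unlike the ratios, they keep spots with the flag -50, so dim probes have levels where they have no ratio. PXR-deficient replicates 1 and 2 were averaged for the levels too. Precision is limited by how many arrays there are.

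Every called probe was named, with sample values for the 6 highest, the 6 lowest and those also called in a difference, plus the 3 nearest below the threshold and any measured in 1 sample. Gene lists and cell type markers were planned, and none could be counted without a pairing of probes with genes.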

Additional observations from a re-analysis of the deposited data

Results flagged for a closer look

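For 1 called probe, 1 sample stood far from the others of its group. Mm098 had a log2 ratio of -0.063 in PXR-deficient replicates 1-2, against 0.34 to 0.45 in replicates 3 to 6, a gap larger than Dixon's 95% limit for 5 samples. It was the only one of the 22 called probes measured in 5 samples to exceed that limit. Such a limit marks about 1 in 20 groups by chance, and 1 of 22 is near that share.

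The other results listed here are called probes whose response differed between genotypes by the limma contrast. In PXR-deficient minus WT liver the differences of log2 ratios were 1.02 for Mm051, 0.71 for Mm050, 0.56 for Mm036 and 0.48 for Mm043, all higher in PXR-deficient liver. They were -2.21 for Mm001, -1.90 for Mm024, -1.10 for Mm150, -1.02 for Mm102, -1.01 for Mm059, -0.50 for Mm015 and -0.38 for Mm034.

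In PXR-deficient minus CAR/PXR-deficient liver the differences were 3.53 for Mm038, 3.27 for Mm039, 2.14 for Mm052, 1.35 for Mm051, 1.15 for Mm027, 1.12 for Mm050, 1.12 for Mm037, 0.72 for Mm008, 0.67 for Mm036 and 0.64 for Mm007. They were -2.13 for Mm001, -1.76 for Mm024, -0.84 for Mm131, -0.73 for Mm070, -0.66 for Mm150, -0.61 for Mm102 and -0.42 for Mm034. The single vehicle pools of the genotypes enter each of these differences, and their part was not tested.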

How the results depend on the processing

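Of the 26 calls in PXR-deficient liver, 9 passed under each of the 27 alternatives that gave them a value (Mm001, Mm016, Mm036 to Mm039 and Mm050 to Mm052; for Mm052, measured in 2 samples, leaving samples out is no real test), 17 lost the call under at least 1, and 6 of these changed sign under at least 1. The count of 26 was 15 with replicates 3 and 4 also averaged, 12 in the authors' deposited value table (11 higher, 1 lower) and 15 to 24 with 1 sample left out. With spike-in centring it was 25, of which 23 were higher and 2 lower. With the PXR-deficient samples fitted alone it was 22, of which 21 were shared with the 26. Mm119, Mm092, Mm043, Mm098 and Mm034 then lost their calls (limma, adjusted p = 0.0581 to 0.135). Alternatives chosen after seeing the data gave 14 with replicates 5 and 6 averaged as well, 13 with upper arrays on the slide alone and 14 with lower ones alone; all 25 called probes with values at both positions had the same sign in both. The count of 15 against WT was 4 with those groups fitted alone, 6 with median centring, 28 with spike-ins, 5 with scale normalization, 8 in the value table, 6 with the 3 pairs averaged, 2 with upper arrays alone and 9 to 19 with 1 sample left out. The count of 26 against CAR/PXR-deficient liver was 13 with upper and 12 with lower arrays alone and 19 to 27 with 1 sample left out.

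Log2 ratios that changed sign in PXR-deficient liver were, with median centring, Mm119 (-0.082), Mm134 (-0.0094) and Mm144 (-0.40); with spike-ins, Mm015 (0.093), Mm020 (0.15), Mm034 (0.46), Mm070 (0.19), Mm131 (0.18), Mm154 (0.33) and Mm144 (-0.44); in the value table, Mm020 (0.085), Mm034 (0.28), Mm131 (0.028), Mm154 (0.075) and Mm144 (-0.060), with Mm144 at -0.255 after median centring of the table. Differences that changed sign against WT were Mm034 (0.59) and Mm015 (0.40) with spike-ins and 0.40 and 0.20 in the value table, and against CAR/PXR-deficient liver Mm036 (-0.17), Mm007 (-0.49) and Mm008 (-0.39) in the value table; the cause was not tested. Replicate numbers are shared by the genotypes, and deviations of same-numbered samples correlated from -0.12 to 0.62. Differently numbered samples were not correlated, so this range cannot decide whether the numbers mark pairs. They were not read as pairs. With replicate number as a block and all arrays counted separately the counts were 14 against WT and 33 against CAR/PXR-deficient liver. The counts were 16 and 34 with the arrays counted separately and no block. Signal over background limited probes dim in 1 channel, among them Mm038 and Mm039, whose log2 ratios were 2.43 and 2.29 without background correction, and Mm024, Mm092 and Mm119.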
